A study of Rattus norvegicus with 11 samples.

Results

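The interleukin-1 (IL-1) family and inflammasome genes described here were 10 genes chosen by symbol: the ligands Il1a, Il1b, Il18 and Il33, the receptor antagonist Il1rn, the receptors Il1r1, Il1r2 and Il1rl1, and the inflammasome genes Casp1 and Nlrp3. All 10 were found among the 18507 genes of the expression table. Bladder tissues of female Sprague-Dawley rats, aged about 0.5 years per the study's methods, were profiled by bulk RNA-seq. In the partial bladder outlet obstruction (PBOO) groups a suture had been tied around the outlet to narrow it, and the animals of the comparison group, labelled normal, were described in the methods as sham-operated, with the abdominal incision but no tie. The groups were PBOO week 4 (n = 3), normal week 4 (n = 3), PBOO week 5 (n = 2) and normal week 5 (n = 3), and the question was how bladder tissue after 4 weeks of obstruction differs from tissue after 5 weeks. All animals were of 1 sex and carried no engineered allele, and each sample was a piece of mixed tissue, so that fewer cells of a type and less RNA per cell cannot be told apart. The study describes the samples of a group as biological replicates, while the labels name no animals, and the p-values measure the spread between these samples. The columns of the week 5 normal samples are named adult, a word used for no other group, so whether these animals had the sham operation is not settled by the labels.

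IL-1α and IL-1β bind the same receptor, IL-1R1, and start inflammatory signalling through NF-κB, while the antagonist encoded by Il1rn occupies that receptor without signalling and the decoy receptor IL-1R2 captures ligand without signalling. IL-1β and IL-18 are made as inactive precursors that caspase-1 cleaves, and caspase-1 is itself activated in inflammasomes, complexes assembled by sensors such as NLRP3. IL-1α and IL-33 are alarmins, held in cells of barrier and connective tissue and let out when those cells are damaged, and IL-33 signals through the receptor encoded by Il1rl1, also called ST2.

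Values were FPKM, that is fragments scaled to exon length and to the number of mapped fragments, so that levels are per length and can be set beside each other between genes. Column sums lay between 424961 and 564343 FPKM, and read depth was unknown. At week 4, 4871 genes were listed at 0 in every sample against 403 at week 5, among them 62 of the 657 genes that averaged 100 FPKM or more at week 5, such as Krt7 and Atp5b, and also Hprt1, a gene of every cell. The names of all week 4 columns also end in Input, and those of the week 5 columns do not. The weeks may therefore have been processed separately, and levels were compared within a week only. The urothelial, smooth muscle, fibroblast and endothelial marker lists were present in all groups, as bladder wall would have them, but the summed smooth muscle level of PBOO week 5 (1000 and 1890 FPKM) lay far under that of normal week 5 (25500 to 29800 FPKM).

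The promoters of 4 members that the comparisons turn on are shown to let a reader see the start regions of the genes that moved most at week 5 and of both IL-1 ligands. They are windows of 300 bases, 250 before to 50 after a transcription start, in RefSeq's rat assembly GRCr8, given 5′ to 3′ on the gene's strand, with motif matches in capitals. The motifs searched on both strands were AP-1 (TGANTCA), C/EBP (TTGCNNAA), PU.1 (GAGGAA) and the κB consensus, and no matches overlapped. Il1a lies at chr3:136989968-136990267 on the minus strand and holds a PU.1 match at base -41 and an AP-1 match at -12 from the start. Il1b lies at chr3:137036532-137036831 on the minus strand and holds a C/EBP match on the opposite strand at base 33. Casp1 lies at chr8:10872580-10872879 on the plus strand and holds a PU.1 match at base -166. The second start of Il33 lies at chr1:237134696-237134995 on the plus strand and holds a C/EBP match at base -92.
Il1a: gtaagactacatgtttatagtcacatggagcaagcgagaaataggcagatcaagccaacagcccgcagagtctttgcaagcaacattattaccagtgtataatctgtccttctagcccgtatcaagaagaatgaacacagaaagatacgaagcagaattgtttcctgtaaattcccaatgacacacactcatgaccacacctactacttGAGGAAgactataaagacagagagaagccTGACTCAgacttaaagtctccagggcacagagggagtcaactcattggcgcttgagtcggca
Il1b: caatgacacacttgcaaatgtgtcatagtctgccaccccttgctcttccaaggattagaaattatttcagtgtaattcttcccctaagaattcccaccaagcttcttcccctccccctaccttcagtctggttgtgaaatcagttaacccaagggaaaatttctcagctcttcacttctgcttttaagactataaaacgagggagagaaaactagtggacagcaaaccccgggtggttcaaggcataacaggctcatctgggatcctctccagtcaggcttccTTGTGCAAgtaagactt
Casp1: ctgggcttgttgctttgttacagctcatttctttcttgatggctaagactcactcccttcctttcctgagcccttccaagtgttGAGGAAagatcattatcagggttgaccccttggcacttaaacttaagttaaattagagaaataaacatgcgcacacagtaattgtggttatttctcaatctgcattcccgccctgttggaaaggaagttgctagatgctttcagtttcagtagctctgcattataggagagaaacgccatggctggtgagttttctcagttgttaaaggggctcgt
Il33, second start: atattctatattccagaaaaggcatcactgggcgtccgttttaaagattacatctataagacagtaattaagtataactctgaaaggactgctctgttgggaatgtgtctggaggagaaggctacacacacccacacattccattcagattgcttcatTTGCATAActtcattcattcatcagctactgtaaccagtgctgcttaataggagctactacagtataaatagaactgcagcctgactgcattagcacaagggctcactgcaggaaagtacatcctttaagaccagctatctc

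Of the 10 members, 9 had a promoter in the table, in 10 windows, and Il1r2 had none. Among the windows not shown, Il18 held an AP-1 match at base 5, Il1r1 a κB match at -135, Il1rl1 a PU.1 match at 19 and Nlrp3 a PU.1 match at -73, whereas Il1rn and the first start of Il33 held none of the 4 motifs. Of all 33361 promoters, 27.6% held the PU.1 motif, 10.6% the C/EBP motif, 7.34% the AP-1 motif and 4.19% the κB motif. In GRCr8, Il1a and Il1b are next to each other on chromosome 3, Casp1 stands beside Casp4 and Casp12 on chromosome 8, and Il1r2, Il1r1, Il1rl2 and Il1rl1 lie close together on chromosome 9.

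At week 4 none of the 10 members passed the test between PBOO and normal bladder tissues, which does not show that their levels were equal. Members were tested with limma on log2(FPKM + 0.1) together with all genes of at least 0.5 FPKM on average, and a gene was called at an adjusted p under 0.05 and a change of at least 2-fold. Of the 11320 genes tested, 0.371% were called and 32% had an unadjusted p under 0.05, while 0 of the 10 members reached either mark. The PBOO and normal samples overlapped for every member, whereas the groups did not overlap for 41.6% of all genes (6.63% with PBOO above and 34.9% with PBOO below). At week 5, with the same test, 5 of the 9 members tested were called against 19.3% of 13685 genes: Il1a, Il1b, Il1rn and Casp1 rose in PBOO (7.91% of genes were called higher) and Il33 fell (11.4% were called lower). At an unadjusted p under 0.05 the same 5 members passed, against 43.4% of genes (24.6% higher and 18.8% lower), and a 4-fold threshold, added after seeing the data, left 4 of them against 9.77%, Il1rn dropping out. The groups did not overlap for 6 of the 9 members against 60.2% of genes, 5 with PBOO above (35.3%) and 1 with PBOO below (25%). In a fit over both weeks the change under PBOO differed between the weeks for the same 5 members, against 40% of genes. Il1rl1 was left out at week 5 by the filter on low levels, and Il1a passed it there only through the PBOO samples. At week 4 Il1a passed it only through PBOO sample 1 (2.43 FPKM), and over both weeks only through the PBOO week 5 samples.

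**Figure D1:**
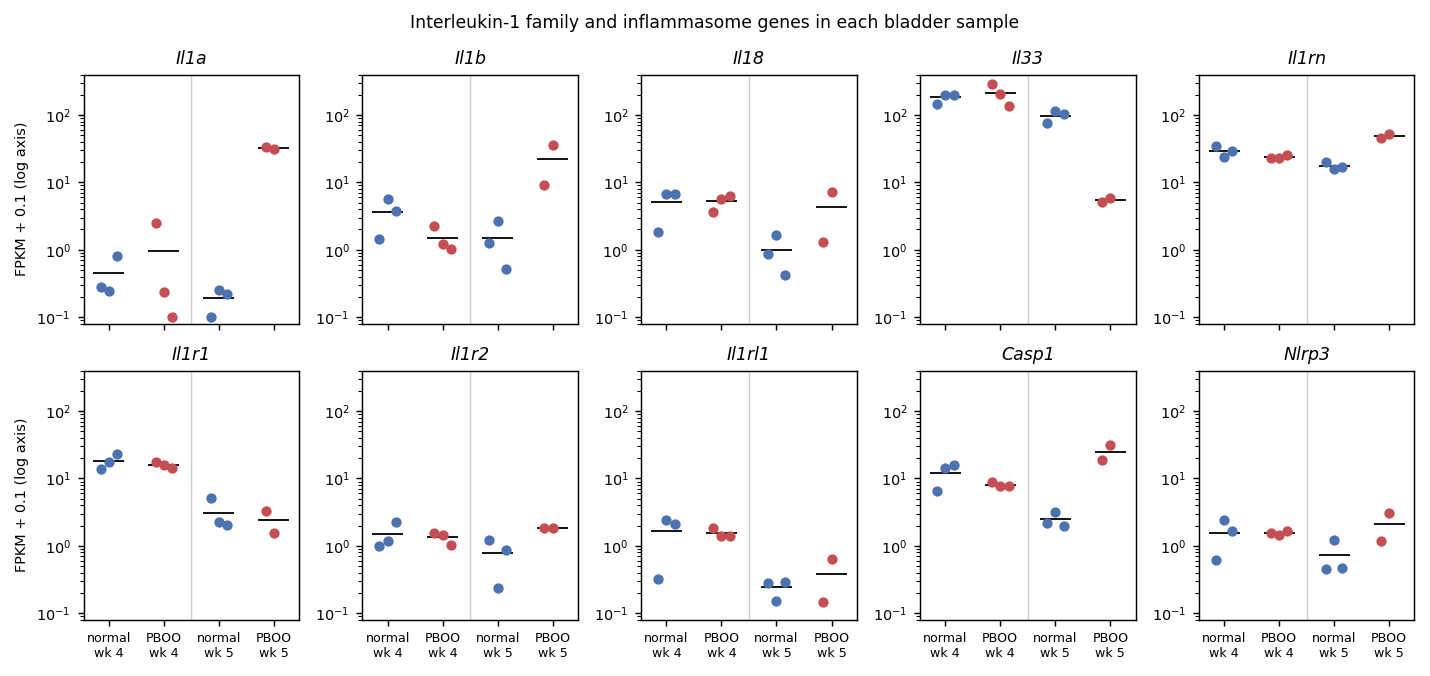
FPKM + 0.1 (log axis) of the 10 members in each of the 11 samples, by group, each point a sample and each line the group mean. At week 4 the PBOO and normal points overlap in every panel. At week 5 the PBOO points of Il1a, Il1b, Il1rn, Casp1 and Il1r2 (not called) lie above the normal ones. Those of Il33 lie below, and the groups did not overlap for 60.2% of all genes tested.

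Il1a, the alarmin form of IL-1, was near the floor of the table in normal tissue. At week 4 it measured 0.181, 0.142 and 0.715 FPKM in the normal samples and 2.43, 0.134 and 0 FPKM in the PBOO samples, so that 1 PBOO sample stood above the rest and the groups overlapped (log2 difference 0.03, SE 1.21, limma adjusted p = 0.987). The week 5 levels were 0, 0.156 and 0.123 FPKM in normal tissue and 33.7 and 30.9 FPKM in PBOO. The PBOO samples were close to each other and far above every normal sample, with means of 32.3 ± 1.97 (SD, n = 2) against 0.0929 ± 0.0821 FPKM (SD, n = 3). The log2 difference was 7.50 (SE 0.46, limma adjusted p = 0.000459). Since the normal level was this low, the size rests on the pseudocount, being 4.93 with 1 FPKM added and 9.06 with 0.01 added.

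Il1b, the ligand that caspase-1 matures, measured 1.33, 5.49 and 3.66 FPKM in normal and 2.16, 1.13 and 0.909 FPKM in PBOO tissue at week 4 (log2 difference -1.14, SE 0.55, limma adjusted p = 0.196). Only normal sample 1 reached down into the PBOO range, and the log2 difference was -1.70 (limma adjusted p = 0.108) without it and -0.72 (adjusted p = 0.437) without normal sample 2. At week 5 the level was 1.17, 2.56 and 0.416 FPKM in normal and 9.06 and 36.0 FPKM in PBOO tissue. Both PBOO samples lay above all normal samples but were themselves far apart. Il1b rose by 3.92 on the log2 scale (SE 0.85, limma adjusted p = 0.0214), and this call was lost without normal sample 1 (3.96, adjusted p = 0.0692), normal sample 3 (3.31, adjusted p = 0.0515) or PBOO sample 2 (2.93, adjusted p = 0.0791).

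Il18, the other substrate of caspase-1, was at 1.73, 6.69 and 6.65 FPKM in normal and 3.59, 5.56 and 6.21 FPKM in PBOO tissue at week 4 (log2 difference 0.22, SE 0.53, limma adjusted p = 0.779). Its week 5 levels were 0.764, 1.58 and 0.317 FPKM in normal and 1.22 and 7.07 FPKM in PBOO tissue, where sample 1 fell inside the normal range and sample 2 above it. The log2 difference of 1.86 (SE 0.89, limma adjusted p = 0.167) did not pass. Its size followed the PBOO samples, being 3.08 (adjusted p = 0.0483) without sample 1, which leaves sample 2 alone, and 0.64 (adjusted p = 0.591) without sample 2.

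Il33, the second alarmin, was the most abundant member in normal tissue. It measured 147, 201 and 201 FPKM in normal and 286, 209 and 136 FPKM in PBOO tissue at week 4, with the PBOO samples on both sides of the normal ones (log2 difference 0.15, SE 0.27, limma adjusted p = 0.708). After 5 weeks it measured 76.2, 114 and 104 FPKM in normal and 4.94 and 5.80 FPKM in PBOO tissue. Both PBOO samples were far under the lowest normal sample. Il33 fell by 4.15 on the log2 scale (SE 0.20, limma adjusted p = 0.000288), and its mean in PBOO was 0.0548 of the normal mean.

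Il1rn, which encodes the antagonist, was at 34.5, 23.8 and 29.3 FPKM in normal and 22.9, 23.0 and 25.5 FPKM in PBOO tissue at week 4 (log2 difference -0.28, SE 0.15, limma adjusted p = 0.238), with overlapping groups. The week 5 samples held 20.3, 15.8 and 17.0 FPKM in normal and 45.5 and 52.7 FPKM in PBOO tissue, and the groups were well apart. It rose by 1.47 on the log2 scale (SE 0.15, limma adjusted p = 0.00217), or 2.78-fold by the means. The antagonist-to-ligand ratio within samples restates these changes, since on the log2 scale its difference is that of Il1rn minus that of Il1b. The FPKM ratio of Il1rn to Il1b at week 5 was 17.4, 6.18 and 40.8 in normal and 5.02 and 1.47 in PBOO samples, which did not overlap. The difference of the log2 ratios was -2.45 (exact two-sided permutation p = 0.2, the smallest that 3 against 2 samples can give), and at week 4 it was 0.86 (exact permutation p = 0.3, where 0.1 is the smallest possible). Leaving out 1 sample, the week 5 value ranged from -3.33 without PBOO sample 1 to -1.56 without PBOO sample 2, and the week 4 value from 0.30 to 1.55, while a pseudocount of 1 gave -1.69 at week 5.

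None of the receptors tested passed, Il1r1 and Il1r2 at both weeks and Il1rl1 at week 4, while Il1rl1 was not tested at week 5. Il1r1, the signalling receptor for both IL-1 ligands, was at 13.6, 17.5 and 23.3 FPKM in normal and 17.3, 15.5 and 14.2 FPKM in PBOO tissue at week 4, and at 4.97, 2.13 and 1.96 FPKM in normal and 3.14 and 1.47 FPKM in PBOO tissue at week 5. The groups overlapped at both weeks (log2 differences -0.18, SE 0.21, and -0.34, SE 0.51, limma adjusted p = 0.553 and 0.647). Il1r2, the decoy receptor, was at 0.900, 1.06 and 2.18 FPKM in normal and 1.47, 1.34 and 0.924 FPKM in PBOO tissue at week 4 (log2 difference -0.06, SE 0.39). At week 5 it was at 1.12, 0.135 and 0.776 FPKM in normal and 1.77 and 1.74 FPKM in PBOO tissue. Both PBOO samples lay above the normal ones, as for 35.3% of all genes, and the log2 difference of 1.56 did not pass (SE 0.74, limma adjusted p = 0.165). The ratio of Il1r2 to Il1r1 at week 5 was 0.225, 0.0634 and 0.396 in normal and 0.564 and 1.19 in PBOO samples, a log2 difference of 1.90 (exact two-sided permutation p = 0.2, the smallest possible), against 0.11 at week 4 (exact permutation p = 0.7). Il1rl1, the IL-33 receptor, was at 0.225, 2.35 and 2.04 FPKM in normal and 1.72, 1.28 and 1.31 FPKM in PBOO tissue at week 4 (log2 difference 0.35, SE 0.75, limma adjusted p = 0.754). At week 5 it stood at 0.185, 0.0496 and 0.187 FPKM in normal and 0.0466 and 0.527 FPKM in PBOO tissue, with 1 PBOO sample under and 1 above the normal ones.

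Casp1, the protease that matures IL-1β and IL-18, was at 6.42, 14.3 and 15.5 FPKM in normal and 8.87, 7.67 and 7.57 FPKM in PBOO tissue at week 4 (log2 difference -0.49, SE 0.33, limma adjusted p = 0.32). The PBOO samples were tightly grouped and only normal sample 1 lay under them. The log2 difference was -0.89 (limma adjusted p = 0.0848) without that sample, -0.31 (adjusted p = 0.591) without normal sample 2, -0.26 (adjusted p = 0.635) without normal sample 3 and -0.24 with median-ratio scaling. At week 5 Casp1 was at 2.12, 3.12 and 1.90 FPKM in normal and 18.8 and 31.3 FPKM in PBOO tissue. The groups were widely apart, and Casp1 rose by 3.32 on the log2 scale (SE 0.31, limma adjusted p = 0.00158), 10.5-fold by the means. Nlrp3, the sensor of the best known inflammasome, was at 0.510, 2.36 and 1.54 FPKM in normal and 1.47, 1.33 and 1.57 FPKM in PBOO tissue at week 4 (log2 difference 0.20, SE 0.51). At week 5 it was at 0.348, 1.14 and 0.370 FPKM in normal and 1.07 and 3.01 FPKM in PBOO tissue, with an overlap of 1 sample from each group and a log2 difference of 1.58 (SE 0.65, limma adjusted p = 0.123).

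**Figure D2:**
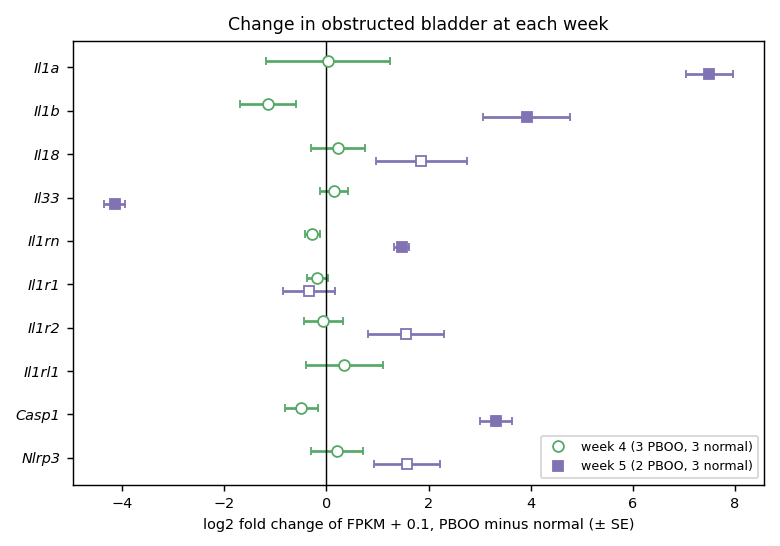
Log2 difference of PBOO minus normal on the log2(FPKM + 0.1) scale for each member at week 4 and week 5, with bars for the limma standard error. Filled symbols are called genes. The week 4 values lie between -1.14 and 0.35, and at week 5 Il1a stands at 7.50 and Il33 at -4.15. Il1rl1 was not tested at week 5.

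The order of the levels also differed between the groups at week 5. In normal tissue at week 5 Il33 made up 78.5% of the summed FPKM of the members and Il1rn 14.2%, each above the next gene in every sample. In PBOO tissue at week 5 Il1rn led with 33.9%, ahead of Il1a with 22.3%, Casp1 with 17.3% and Il1b with 15.5%, and the latter 3 could not be ordered because their samples overlapped. Il33 came after them with 3.71%. At week 4 Il33 took 71.6% of the sum in normal and 78.1% in PBOO tissue, followed in both by Il1rn and Il1r1. Among 10683 genes that averaged 0.5 FPKM or more in both weeks, the genes whose pattern over the 11 samples was closest to Il1b, by the root mean square difference of log2 values centred by week, were Cxcl13 (0.42), Dnase1l3 (0.51), Tnfrsf14 (0.55), Mcemp1 (0.59) and Csf3r (0.59), against a median of 1.55 over all genes. Of the members, Casp1 came closest (0.61), while Il1a was at 1.74. Cxcl13, Mcemp1, Csf3r and Il1a met the minimum at week 5 only through the PBOO samples. Their week 5 normal samples reached at most 0.475, 0.0967, 0.141 and 0.156 FPKM, in that order. The distances are descriptions and not a test.

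The levels of immune cell markers moved with several members, and differed among samples of 1 group. The summed FPKM of 14 neutrophil markers was 6.02, 4.5 and 3.34 in normal week 5 and 25.1 and 474 in PBOO week 5, and 5 of the 9 markers tested were called higher (7.91% of all genes were), S100a9, Retnlg, Cxcr2 and Csf3r among them. Of these 9, 5 had a normal mean under 0.5 FPKM and were tested only because of the PBOO samples, Retnlg, Cxcr2 and Csf3r included. Of the 12 macrophage and monocyte markers 3 rose at week 5 (Cd68, Cd14 and Lyz2), while Cd163 (0.631 FPKM in normal and 0.312 FPKM in PBOO tissue) and Mrc1 (1.12 and 0.684 FPKM), picked out after their values were seen, did not pass. The sum of the list was 105, 169 and 67.6 FPKM in normal and 318 and 972 FPKM in PBOO tissue. Of the 9 T cell markers tested 3 rose (Cd3d, Cd3e and Cd5). Of the 9, 2 were tested only because of the PBOO samples, Cd3d (normal mean 0.447 FPKM) among them. The T cell list summed to 14.1 to 22.7 FPKM in normal and to 24.3 and 88.1 FPKM in PBOO tissue. PBOO sample 2, with the higher sums, also had the higher Il1b, Il18, Casp1 and Nlrp3, but Il1a was higher in PBOO sample 1. B cell markers summed to at most 1.64 FPKM at week 5 and none was tested. Of the 8 endothelial markers 0 were called at either week. At an unadjusted p under 0.05 in limma, 1 was higher at week 5, against 24.6% of all genes. At week 4, 3 were lower by the same mark, against 26.2% of all genes. The part of the immune markers in these results was not tested.

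Markers of the bladder wall moved beside Il33. At week 5 all 10 smooth muscle markers were called lower (median log2 difference -4.56), led by Synpo2, Mylk, Lmod1 and Acta2. Of the 10 fibroblast markers 7 were called lower (median of the list -3.46), led by Col1a2, Col1a1, Dpt and Col3a1. Pdgfra (-1.25), Thy1 (-0.5) and Pdgfrb (-0.15) were not called. Of all genes 11.4% were called lower and 7.91% higher. The median over all genes was 0.12, and Il33 stood at -4.15. Urothelial markers split, with Krt5 and Krt19 higher and Krt20, Upk3b, Upk2 and Krt18 lower in PBOO, and their sum was 8260 to 10800 FPKM in normal and 10600 to 11400 FPKM in PBOO tissue. At week 4, when Il33 was not called, the smooth muscle sum was 26300 to 28600 FPKM in normal and 52200 to 83200 FPKM in PBOO tissue. Of the 10 smooth muscle markers 1 (Actg2) was called higher, against 0.265% of all genes. Of the 11 urothelial markers tested at week 4, 0 were called. At an unadjusted p under 0.05 in limma 10 were lower and 0 higher, against 26.2% and 5.76% of all genes. The urothelial sum was 7150 to 9120 FPKM in normal and 4280 to 5410 FPKM in PBOO tissue. The part of the wall markers in the Il33 result was not tested. Normal week 4 sample 1 stood apart from the other normals, with a macrophage marker sum of 123 against 856 and 932 FPKM, a neutrophil marker sum of 6.54 against 92.7 and 95.2 FPKM and a fibroblast marker sum of 1160 against 4260 and 4320 FPKM. It had the lowest Il1b, Il18, Il33, Il1r1, Il1r2, Il1rl1, Casp1 and Nlrp3 of the 3, and the highest Il1rn.

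**Figure D3:**
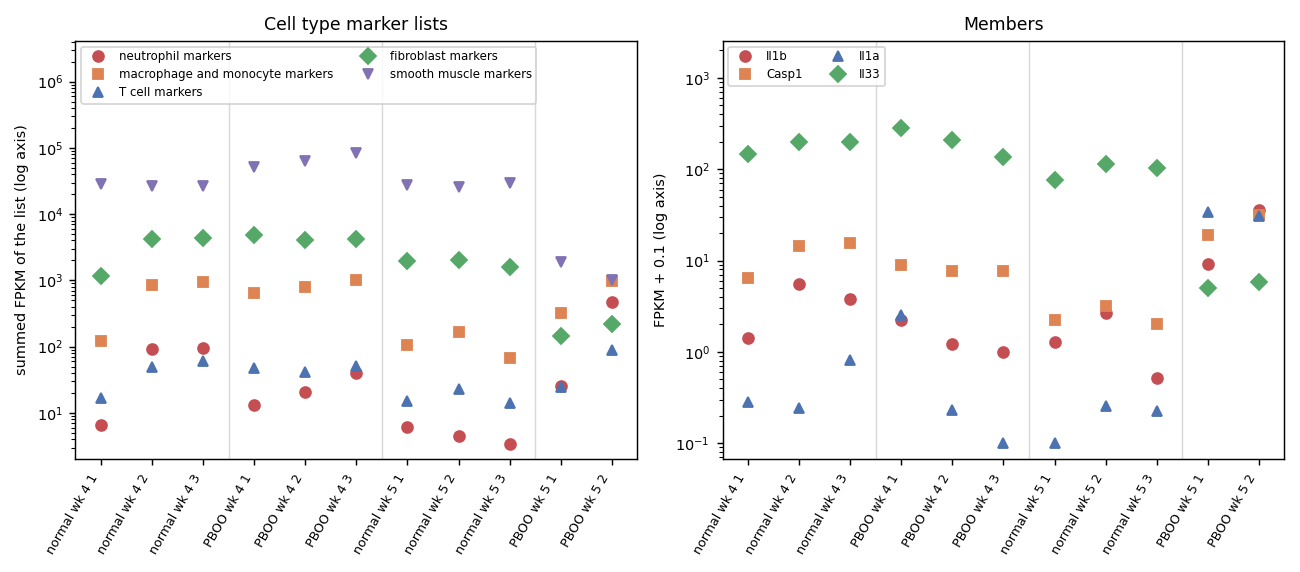
Left, summed FPKM of 5 cell type marker lists (log axis), and right, FPKM + 0.1 of Il1b, Casp1, Il1a and Il33 (log axis), in each of the 11 samples in the same order. The neutrophil sum of PBOO week 5 sample 2 (474 FPKM) is far above that of sample 1 (25.1 FPKM), and the smooth muscle, fibroblast and Il33 points drop in both.

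The rest of the pathway was described by 4 lists. At week 4 none of their genes was called: of the 5 other IL-1 family genes tested, 1 had an unadjusted p under 0.05 and was higher in PBOO and 1 lower, and of the 14 other inflammasome genes 1 was higher and 5 lower, while 3 of the 22 genes of IL-1 receptor signalling and 3 of the 16 IL-1 responsive genes were lower and none was higher, against 5.76% of all genes higher and 26.2% lower. The genes of smallest p were Il18bp, the IL-18 binding protein (log2 difference -0.66, limma adjusted p = 0.114), and Il1rl2, the IL-36 receptor (0.78, adjusted p = 0.152), in the family, Casp12 (1.03, adjusted p = 0.0503) and Txnip (-0.83, adjusted p = 0.0581) in the inflammasome list, Nfkbia (-1.08, adjusted p = 0.0898) and Myd88 (-0.43, adjusted p = 0.101) in signalling, and Ptges (-0.99, adjusted p = 0.0832) and Lcn2 (-1.29, adjusted p = 0.0864) among the responsive genes. The week 4 list medians lay between -0.62 and -0.12, and the median of all genes was -0.25.

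At week 5, 3 of the 6 other family genes tested rose and 1 fell, where 7.91% of all genes were called higher and 11.4% lower. Il36b, an IL-36 ligand, rose by 1.71 on the log2 scale, Il18bp by 1.09 and Sigirr, an inhibitory receptor of the family, by 1.09, while Il1rl2 fell by 1.94 (limma adjusted p between 0.00436 and 0.0403). With a normal mean of 0.441 FPKM, Il36b was tested only because of the PBOO samples. Of the 15 other inflammasome genes 4 rose and none fell: Casp4, the caspase that senses intracellular endotoxin, by 2.36, the sensor Nlrc4 by 2.27, Pycard, the adaptor that joins sensors to caspase-1, by 1.98 and Casp8 by 1.35. Of the 15, 3 were tested only because of the PBOO samples, Nlrc4 (normal mean 0.451 FPKM) among them. Gsdmd, the pore-forming substrate of inflammatory caspases, was lower by a smaller amount (log2 difference -0.96, limma adjusted p = 0.0391), as was Nek7 (-0.84, adjusted p = 0.0442), and both were picked out after their values were seen because they passed the p threshold without reaching 2-fold.

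Of the 26 genes of IL-1 receptor signalling, 9 rose and none fell at week 5, against the same 7.91% and 11.4% of all genes. Myd88 (log2 difference 0.99, limma adjusted p = 0.0029) and Irak2 (0.83, adjusted p = 0.0199) were higher without reaching 2-fold. Both were picked out after their values were seen. The largest changes were in Nfkbiz (2.79), Nfkbia (2.39), Tnfaip3 (1.80) and Rel (1.46), the first 3 being targets and regulators of NF-κB and the last a subunit of it. Of the 22 IL-1 responsive genes 14 rose and none fell, with the largest changes in Cxcl6 (7.19) and Cxcl3 (6.18), which attract neutrophils, and in the matrix proteases Mmp9 (6.30) and Mmp13 (6.09). Cxcl6 went from 0.0742 ± 0.0823 (SD, n = 3) to 24.2 ± 7.37 FPKM (SD, n = 2), and Mmp9 was at 1.83 and 36.7 FPKM in the PBOO samples. Of these 22 genes, 11 had a normal mean under 0.5 FPKM and so were tested only because of the PBOO samples. Cxcl6, Cxcl3, Mmp9 and Mmp13 were among them. The count and the median of this list rest in part on such genes, so neither is a test of the list. Ptgs2, the inducible cyclooxygenase, went against the list without passing (log2 difference -1.61, limma adjusted p = 0.278, chosen after its value was seen). The week 5 medians were 0.99 for the family, 0.48 for the inflammasome list, 0.23 for signalling and 4.04 for the responsive genes, against 0.12 over all genes.

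**Figure D4:**
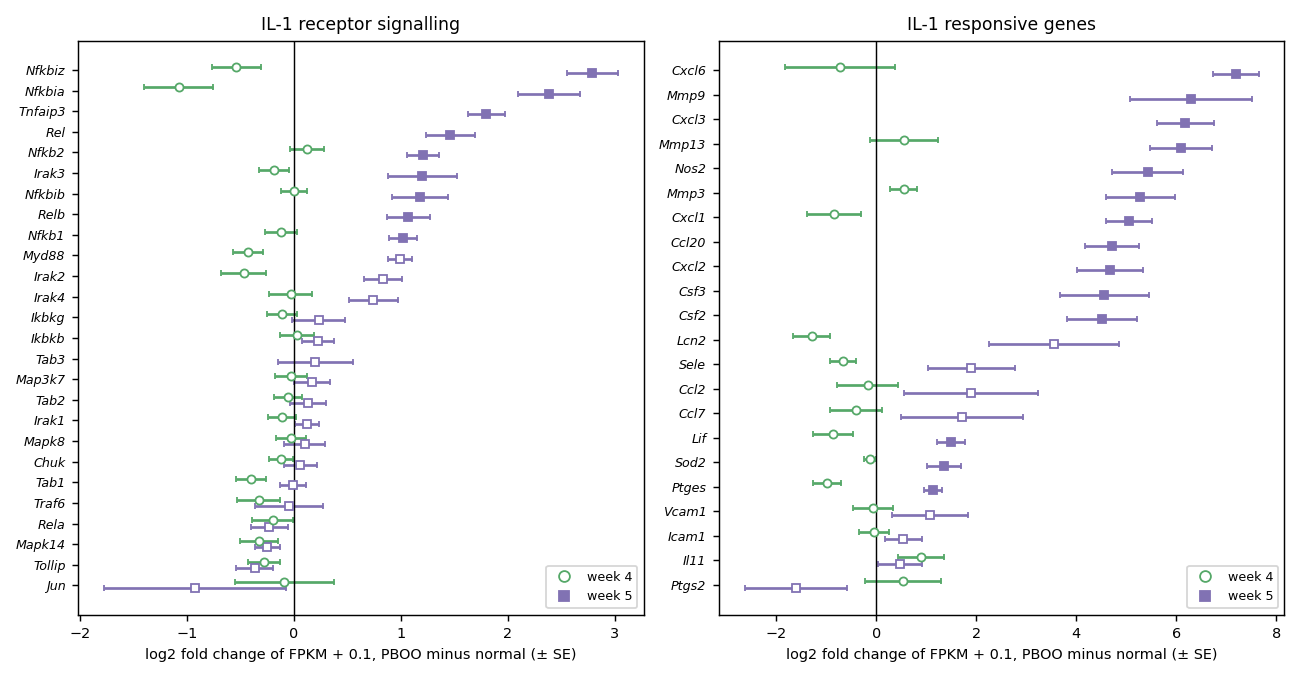
Log2 difference of PBOO minus normal on the log2(FPKM + 0.1) scale, with limma standard errors, for the genes of IL-1 receptor signalling (left) and the IL-1 responsive genes (right) at week 4 (circles) and week 5 (squares). Filled symbols are called genes, 9 on the left and 14 on the right, all at week 5. Genes not tested at week 4 have no circle, among them Tnfaip3, Rel and Relb, listed at 0 in every week 4 sample.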

How the data were processed

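Bulk RNA-seq of 11 rat bladder samples was analysed. The authors deposited 1 table of FPKM values, 1 column per sample with no pooling. Per the study's methods, paired-end reads were trimmed, aligned with HISAT2 and assembled with StringTie, and FPKM were then computed. The submitters' processing notes also list bcl2fastq 2.0, DESeq2, limma and mm10, a mouse build, although the samples are rat, so the build behind the values is uncertain and the annotation is not given in the sources used here. FPKM are not counts: the commonest ratio between 2 samples was shared by at most 3.02% of low genes, so no read steps could be found and no count test was run.

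Groups came from the sample titles. The deposited FPKM were tested within each week with limma 3.58.1 (R 4.3.3, lmFit and eBayes with trend) on log2(FPKM + 0.1), over genes averaging 0.5 FPKM or more in the samples compared, with Benjamini-Hochberg adjustment over all genes. Fold changes are on that scale, which understates those of low genes. The difference between the weeks was tested as an interaction over all 4 groups, in genes with a value above 0 at both weeks and the same minimum over all samples, and called at an adjusted p under 0.05 alone. Ratios within a sample were compared by an exact two-sided permutation test, whose smallest p is 0.1 at week 4 and 0.2 at week 5 (the written plan gave 0.1 for both).

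The alternatives were pseudocounts of 1 and 0.01, no filter, median-ratio scaling, rescaling to the same sum, eBayes without trend, a replicate block and leaving out each sample. A 4-fold threshold at week 5 was added after seeing the data.

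The members and lists were chosen with earlier results of these data known. All 10 members are named. From each other list the up to 4 called genes of largest change per direction and week are named, or, where none was called, the 2 of smallest p, together with the 5 genes nearest to Il1b in pattern. Promoters were taken from RefSeq (GRCr8) by symbol, and protein sequences were not used here.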

Additional observations from a re-analysis of the deposited data

Results flagged for a closer look

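The change under obstruction differed between the weeks for 5 of the 10 members, by the interaction term of a limma fit over all 11 samples, where 40% of the 11296 genes tested also differed. PBOO minus normal at week 5, minus PBOO minus normal at week 4, was 7.47 on the log2 scale for Il1a (SE 1.52, limma adjusted p = 0.00409), 5.06 for Il1b (SE 1.08, adjusted p = 0.00513), 3.81 for Casp1 (SE 0.50, adjusted p = 0.000382), 1.75 for Il1rn (SE 0.23, adjusted p = 0.000347) and -4.30 for Il33 (SE 0.38, adjusted p = 3e-05). The 2 week 5 PBOO samples lay on 1 side of all 3 normal samples for each of these, whereas the week 4 groups overlapped. Il1a reached the minimum level of this fit only through the PBOO week 5 samples. Its difference was 4.68 with 1 FPKM added and 9.92 with 0.01 added, so that its size rests on the pseudocount. The other 5 members did not pass: Il18 (1.64, adjusted p = 0.246), Il1r2 (1.62, adjusted p = 0.148), Nlrp3 (1.38, adjusted p = 0.227), Il1r1 (-0.16, adjusted p = 0.835) and Il1rl1 (0.05, adjusted p = 0.979). The weeks may have been processed separately, and the part of that, and of the markers that moved at week 5, in these differences was not tested.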

How the results depend on the processing

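The 4 members that rose and the 1 that fell at week 5 were called under every pseudocount, filter, scaling, trend and block setting run, and the 5 differences between the weeks in every alternative run. A 4-fold threshold at week 5, added after seeing the data, left 4 members (9.77% of genes), since Il1rn missed it. Leaving out 1 sample, where a lone PBOO sample at week 5 is assumed to vary like the normal ones, gave 4 to 6 members called at week 5 and 0 at week 4. Values without a call reversed at week 4 for Il1a with a pseudocount of 0.01 (-0.86), Il1r1 with median-ratio scaling (0.07) and Il1r2 with median-ratio scaling (0.17) or the same sum (0.03), and between weeks for Il1rl1 with a pseudocount of 0.01 (-0.05), median-ratio scaling (-0.19) or the same sum (-0.08). The cause was not tested. Leaving out 1 sample, the week 4 values ranged from -0.30 to 1.01 for Il1a, -0.37 to 0.02 for Il1r1, -0.30 to 0.30 for Il1r2, -0.41 to 0.54 for Il18, -0.11 to 0.43 for Il33, -0.59 to 0.86 for Il1rl1 and -0.37 to 0.63 for Nlrp3. Without PBOO week 4 sample 1 Il1a fell under the filter and gave no week 4 value, so its range lacks that setting. At week 5, leaving out 1 sample, the values ranged from -0.86 to 0.18 for Il1r1. Between weeks they ranged from -1.0 to 1.1 for Il1rl1 and -0.69 to 0.36 for Il1r1. The ratio of Il1r2 to Il1r1 at week 4 ranged from -0.01 to 0.28.

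Over all genes at week 4, limma called 42 (30 higher, 12 lower), 61 with a pseudocount of 1, 59 (51 higher, 8 lower) with the same sum, and 0 without the filter, with median-ratio scaling or without trend, where 3621 had an unadjusted p under 0.05 in the fit reported. Without PBOO week 4 sample 1 it called 719, 20 without normal sample 1 and 0 without any 1 of the other 4. Median-ratio scaling moved the median of all genes from -0.25 to -0.01 at week 4, from 0.12 to 0.02 at week 5 and from 0.35 to 0.07 between weeks, where 2990 higher and 1526 lower calls became 1811 and 1952. At week 5 it called 2637 and between 1679 and 3503 with a sample left out. With the replicate number as a block limma called 55 genes and 0 members at week 4, and 2319 genes and 5 members at week 5. Same-numbered samples correlated at 0.154, -0.024 and 0.232 at week 4, and different-numbered ones at -0.21 to 0.094. Not every sample correlated best with its own number. With 2 or 3 samples per group these values cannot decide whether the numbers mark pairs. With 2 PBOO samples at week 5 and unknown read depth, precision was limited by the number of samples.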

Other observations

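Mast cells display the IL-33 receptor, and their markers gave values that enter no comparison above. At week 4, 11 mast cell markers were tested and none was called, while at an unadjusted p under 0.05 in limma 4 were higher in PBOO and 1 was lower, against 5.76% and 26.2% of all genes. The lower one was Gata2, the most abundant of the list (102 ± 29.6 FPKM in normal and 59.1 ± 29.3 FPKM in PBOO tissue, SD, n = 3 each), and the summed level overlapped between the groups (149 to 166 FPKM in normal and 136 to 234 FPKM in PBOO tissue). Tpsab1, a tryptase gene whose reads may be shared with its close copy Tpsb2, was at 1.52 ± 0.908 FPKM in normal (SD, n = 3) and 5.12 ± 0.913 FPKM in PBOO tissue (SD, n = 3), a log2 difference of 1.88 (limma adjusted p = 0.0778), and Cma1, a chymase, was at 5.68 ± 3.13 and 13.7 ± 2.14 FPKM (log2 difference 1.45, limma adjusted p = 0.104). At week 5 only 3 of the 11 passed the filter and 1 was called higher, as were 7.91% of all genes. This was Kit, which rose by 1.57 (SE 0.28, limma adjusted p = 0.0115). Mcpt2 (-1.39, limma adjusted p = 0.324) and Gata2 (-0.04, adjusted p = 0.899) did not pass. Tpsab1 and Cpa3 were under 0.2 FPKM in every week 5 sample. Cma1, Ms4a2 and Tpsb2 were at 0 in the PBOO samples, and Mcpt1l1 averaged 0.492 FPKM in normal and 0.122 FPKM in PBOO tissue.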
